A study of Mus musculus with 6 samples.

Results

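Complement is a cascade of plasma and cell-surface proteins that tags targets, recruits leukocytes and can perforate membranes. It starts through a classical, a lectin or an alternative pathway, each of which builds an enzyme that cleaves C3, and membrane and soluble regulators restrain it on host cells. Most circulating complement is made by the liver, but vessel wall cells and macrophages also make components, and interferon and inflammatory cytokines are known inducers of several of them, among them factor B, C4 and the C1 inhibitor. The genes described here are 9 listed complement components, regulators and receptors: C3, C4b, Cfb and Cfd (components), Serping1, Cd55 and Cd59a (regulators), and C3ar1 and C5ar1 (receptors for the released fragments). They were taken as a list by name, with earlier results of these data known, so their counts beside all genes are descriptions. A probe set carrying the symbol was found for 7 of the 9, of 22180 genes with such a probe set; C3 and Cfd have no named probe set in the annotation used here and were not analysed here. Each of the 7 is represented by 1 probe set, and none shares its probe set with another symbol.

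The samples were 3 cultures of vascular smooth muscle cells (VSMCs) from old mice of 58 to 78 weeks and 3 from young mice of 12 weeks, each hybridised to 1 Affymetrix whole-transcript array. All mice were male C57BL/6, and no cells were treated. The methods describe commercial primary aortic cells of more than one supplier, each grown in that supplier's medium and used within 3 passages. No source used here ties a sample to its supplier, so the parts of supplier, medium and age cannot be told apart. Nothing in the labels says that the samples of a group came from separate mice. The p-values therefore reflect only how these 6 samples vary, and that variation may be technical. Values are log2 signals as deposited, so a difference of 1 is a doubling, and all differences are old minus young.

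Old VSMCs had less transcript of Cfb, the gene of factor B, which supplies the protease of the alternative pathway C3 convertase. Cfb had log2 signals of 7.79, 7.64 and 7.06 in old VSMCs, against 10.15, 8.43 and 9.38 in young VSMCs. Every old sample was below every young sample, with a gap of 0.644 between the nearest ones. The means were 7.50 ± 0.38 in old and 9.32 ± 0.86 in young VSMCs (SD, n = 3 each). The difference was -1.82 ± 0.39 (SE), or 3.54 times lower in old, with a 95% interval of 0.151 to 0.53 times the young level. Its unadjusted p was 0.00164 and its Benjamini-Hochberg adjusted p over all genes 0.187 (limma). Cfb thus fell at the study's threshold, a difference over 1 in size with an unadjusted p under 0.05, but not after adjustment. The exact permutation test of 3 against 3 gave p = 0.1 for Cfb, the smallest it can give. In these bulk cultures, fewer cells expressing a gene and less RNA per cell cannot be told apart.

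At the study's threshold 1 of the 7 members was lower in old VSMCs and 0 were higher, where 0.676% of all genes were lower and 0.325% higher. At an unadjusted p under 0.05 and any size 2 were lower and 0 higher, against 4.72% and 6.71% of all genes. At an adjusted p under 0.05 there was 0 of 7 (limma). The median difference of the 7 was -0.13, against 0.03 over all genes. Old and young samples did not overlap for 2 of the 7, Cfb and Serping1, where 18.1% of all genes did not overlap.

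**Figure D1:**
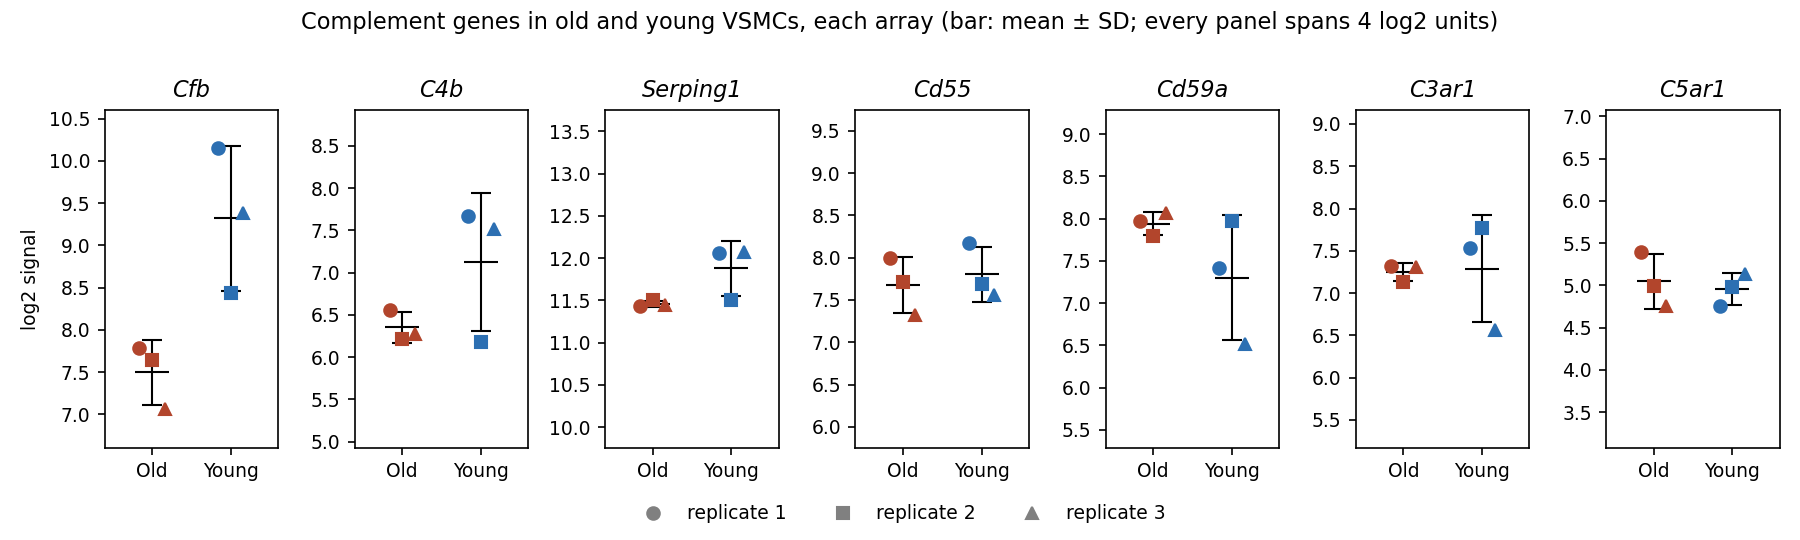
Log2 signal (y axis) of the 7 measured complement genes on each array, old left and young right; symbols mark the replicate number, which only names a sample, and bars give the mean ± SD of 3. Every panel spans 4 log2 units: the old Cfb values lie between 7.06 and 7.79, below the young values of 8.43 to 10.15, and young replicate 2 lies near the old samples for Cfb, C4b and Serping1.

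The other measured component, C4b, encodes C4, which is cleaved in the classical and lectin pathways to form their C3 convertase. C4b was at 6.56, 6.22 and 6.27 in old VSMCs and at 7.67, 6.18 and 7.52 in young VSMCs. Young replicate 2 was the lowest of all 6 samples, so the groups overlapped, while the other young samples were above all old ones. The means were 6.35 ± 0.19 and 7.12 ± 0.82 in old and young VSMCs (SD, n = 3 each). The difference of -0.77 ± 0.36 (SE) had an interval of -1.59 to 0.05 and missed the threshold (unadjusted p = 0.0612, adjusted p = 0.457, limma). Without young replicate 2 it was -1.25, past the study's threshold (unadjusted p = 8.38e-05, adjusted p = 0.103, limma; over the fits that left out 1 sample the adjusted p ran from 0.103 to 0.731). A near-identical paralog, C4a, which encodes the sex-limited protein, had a dim probe set of its own, at a mean of 3.99, with a difference of -0.44 ± 0.27. Probes of C4a and C4b may share transcripts, so the assignment between these genes is uncertain.

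Serping1 encodes the C1 inhibitor, a serpin that stops the proteases of the classical and lectin pathways. It was at 11.43, 11.50 and 11.45 in old VSMCs, against 12.06, 11.50 and 12.08 in young VSMCs. The old samples lay close together, and young replicate 2 exceeded the highest old sample by only 0.00128. The means were 11.46 ± 0.04 in old and 11.88 ± 0.33 in young VSMCs (SD, n = 3 each). The difference was -0.42 ± 0.17 (SE), or 0.748 times the young level, with an unadjusted p of 0.0365 and an adjusted p of 0.408 (limma). It was too small for the study's threshold. Without young replicate 1 its unadjusted p was 0.12 in limma, and leaving out young replicate 3 or any 1 old sample also took it above 0.05.

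The 3 genes Cfb, C4b and Serping1 had the same lowest young sample, replicate 2. This grouping was made after the values were seen, so it is a description. Young replicate 2 was also the lowest young sample for other complement genes, among them C1ra, C1rb, C1s1, C4bp and Clu, though not for all. The trait is thus not particular to the trio. Averaged over the trio, the log2 signal was 8.60, 8.45 and 8.26 in old VSMCs (replicates 1 to 3), against 9.96, 8.71 and 9.66 in young VSMCs (replicates 1 to 3). Leaving out the lowest young sample had to make each of these differences larger in size, so the gain itself shows nothing further. Without young replicate 2 the differences were -2.27 for Cfb, -1.25 for C4b and -0.61 for Serping1. Without young replicate 1, the sample highest in Cfb and C4b, they were -1.41, -0.50 and -0.33.

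Cd55 and Cd59a encode lipid-anchored regulators on the cell surface. Cd55, decay-accelerating factor, takes C3 convertases apart, and was at 7.997, 7.71 and 7.33 in old and at 8.17, 7.69 and 7.55 in young VSMCs. Both groups covered nearly the same range, and the difference of -0.13 ± 0.22 (SE) had an interval of -0.62 to 0.37 (adjusted p = 0.862, limma). Cd59a, which blocks the membrane attack complex, was at 7.97, 7.79 and 8.06 in old and at 7.42, 7.98 and 6.51 in young VSMCs. Here young replicate 2 was as high as the old samples and young replicate 3 was far below. The difference of 0.64 ± 0.32 (SE), with an interval of -0.10 to 1.38, missed the threshold (unadjusted p = 0.0815, adjusted p = 0.496, limma). It was 0.98 without young replicate 2 (unadjusted p = 0.0073, adjusted p = 0.195, limma; 0.195 to 0.743 over the fits without 1 sample) and 0.24 without young replicate 3.

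The receptors for the C3a and C5a fragments, C3ar1 and C5ar1, are G protein-coupled receptors best known from myeloid cells. C3ar1 was at 7.32, 7.13 and 7.30 in old VSMCs, against 7.53, 7.77 and 6.57 in young VSMCs. The old samples fell inside the range of the young ones, and the difference was -0.04 ± 0.28 (SE) with an interval of -0.69 to 0.61 (adjusted p = 0.976, limma). Young replicate 3 was the low one, and without it the difference was -0.40 (unadjusted p = 0.0199, adjusted p = 0.469, limma; the adjusted p ran from 0.469 to 0.992 over the fits without 1 sample). C5ar1 was at 5.40, 4.997 and 4.76 in old and at 4.76, 4.98 and 5.14 in young VSMCs, with a difference of 0.09 ± 0.18 (interval -0.33 to 0.51, adjusted p = 0.889, limma). It was the dimmest of the 7 probe sets, above a log2 signal of 5 on 2 of 6 arrays, so C5ar1 may be near the background of the array.

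Start-site sequences were read from RefSeq (build GRCm38.p6) for C3, Cfd, Cd55, Cd59a, C3ar1 and C5ar1; C4b, Cfb and Serping1 had no entry. The 250 bases before the annotated start were searched on both strands for an interferon element (GAAANNGAA), a gamma-activated element (TTCNNNGAA), an NF-kB site (GGGNNTTTC) and a C/EBP site (TTGCNNAA). These letters occur in 7.13%, 7.02%, 3.72% and 9.56% of all 32851 such windows. The windows of the 3 measured members with a match are shown. Cfb, the member called, had no window to search, so the matches cannot be set against the calls. Capitals mark the match, to the interferon element in Cd59a and, read on the other strand, in C5ar1, and to the NF-kB letters, also on the other strand, in C3ar1.
Cd59a (chr2:104095551-104095800, + strand): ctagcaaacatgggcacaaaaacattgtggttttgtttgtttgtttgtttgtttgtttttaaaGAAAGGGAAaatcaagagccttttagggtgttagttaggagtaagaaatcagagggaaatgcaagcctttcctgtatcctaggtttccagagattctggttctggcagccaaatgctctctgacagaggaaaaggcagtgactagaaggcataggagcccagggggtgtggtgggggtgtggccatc
C3ar1 (chr6:122856158-122856407, - strand): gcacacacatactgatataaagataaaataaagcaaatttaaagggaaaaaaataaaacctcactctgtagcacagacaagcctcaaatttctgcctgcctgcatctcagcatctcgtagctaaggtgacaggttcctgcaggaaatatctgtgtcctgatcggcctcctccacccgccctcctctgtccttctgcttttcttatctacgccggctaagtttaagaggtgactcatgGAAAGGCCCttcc
C5ar1 (chr7:16259339-16259588, - strand): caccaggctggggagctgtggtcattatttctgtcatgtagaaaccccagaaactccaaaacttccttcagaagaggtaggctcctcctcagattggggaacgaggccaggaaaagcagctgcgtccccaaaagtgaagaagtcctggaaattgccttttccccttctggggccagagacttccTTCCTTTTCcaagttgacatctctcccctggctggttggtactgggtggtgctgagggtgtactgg
The match begins 187 bases before the start in Cd59a, 66 in C5ar1 and 13 in C3ar1. Of the unmeasured members, C3 held a match to the C/EBP letters that begins 45 bases before the start. The windows of Cd55 and Cfd held none of the 4 motifs. A match of letters is a description and shows no binding.

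Of 45 other complement genes, 43 were measured. At the study's threshold 1 was higher and 0 were lower, which is 2.33% of them against 1.0% of all genes. At an unadjusted p under 0.05 there were 2 in each direction, 9.3% of them against 11.4% of all genes, and 0 had an adjusted p under 0.05 (limma). Their median difference was -0.01. Of the 43, 20 were above a log2 signal of 5 on fewer than 3 arrays. The gene at the threshold was Masp1, which encodes proteases of the lectin pathway. Masp1 was at 7.52, 8.89 and 9.61 in old VSMCs, against 7.98, 7.74 and 6.45 in young VSMCs. The groups overlapped through old replicate 1, and the difference of 1.28 ± 0.55 (SE, unadjusted p = 0.0488, adjusted p = 0.436, limma) was 0.81 without young replicate 3 and 0.82 without old replicate 3, below the threshold in both. Leaving out young replicate 2 or old replicate 2 also took its unadjusted p above 0.05. With array weights Masp1 was no longer called (difference 1.0, unadjusted p = 0.0799, limma), and C2 was the 1 gene past the threshold, lower at -1.02.

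C2 and Cd46, named after their values were seen, were the lower genes at an unadjusted p under 0.05. C2 encodes the classical pathway counterpart of factor B and lies next to Cfb on chromosome 17, in the gene cluster that also holds C4b. C2 was at 5.86, 5.21 and 5.25 in old VSMCs, against 6.67, 5.82 and 6.64 in young VSMCs. Young replicate 2 was again the lowest young sample, and it was just below old replicate 1. The difference was -0.93 ± 0.26 (SE, unadjusted p = 0.00761, adjusted p = 0.293, limma). Cd46, known mainly from human as a cofactor for the cleavage of C3b, was at 4.71, 4.68 and 4.73 in old VSMCs, against 5.41, 5.08 and 6.18 in young VSMCs. All old Cd46 values were below all young ones, with a difference of -0.85 ± 0.25 (adjusted p = 0.305, limma); without young replicate 3 it was -0.54. The old values were all under a log2 signal of 5 and may be near the background of the array, so the size of the Cd46 difference is uncertain. Without young replicate 2, 3 genes of this wider list were lower at the study's threshold, among them C2 at -1.21 and Cd46 at -1.09.

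The brightest probe set of each other role showed smaller differences. Itgb2, the beta chain of the leukocyte receptors for cleaved C3, was at 6.06, 6.56 and 6.75 in old VSMCs, against 6.03, 5.93 and 5.80 in young VSMCs (difference 0.53 ± 0.18, SE, adjusted p = 0.346, limma). The groups were separated by a narrow margin. Differences were 0.08 ± 0.17 for the C1r-like protease gene C1rl, -0.18 ± 0.11 for Cfp, which encodes the convertase stabiliser properdin, and -0.18 ± 0.34 for the soluble inhibitor Clu. Cr1l, the rodent membrane regulator Crry, differed by -0.07 ± 0.12. C7, a subunit of the membrane attack complex, differed by -0.67 ± 0.92. It stood at 8.46 in young replicate 3, while the other samples of both groups were between 4.56 and 6.10.

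**Figure D2:**
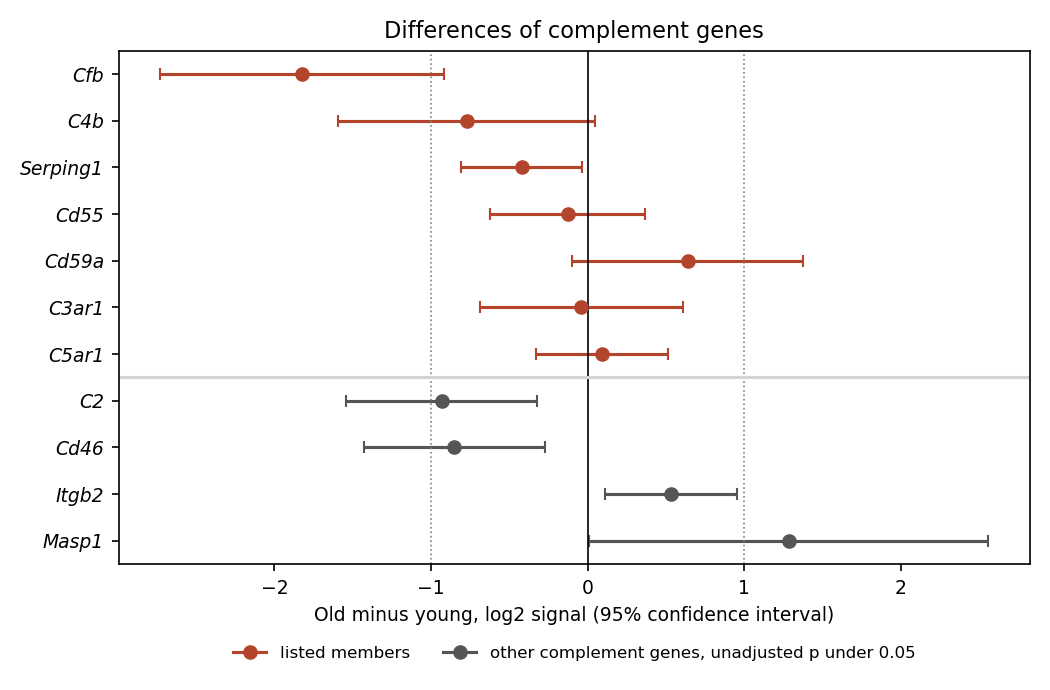
Old minus young differences in log2 signal (x axis) with their 95% confidence intervals, for the 7 measured members (upper rows) and the 4 other complement genes with an unadjusted p under 0.05 (lower rows). Dotted lines mark a difference of 1 in either direction: Cfb at -1.82 and Masp1 at 1.28 lie beyond them.

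The arrays correlated with each other at 0.96 to 0.986, and young replicate 3 stood apart, with the lowest mean correlation of 0.969. The difference of Cfb was -1.79 without that sample. Smooth muscle genes were present, with Acta2 at 12.50 ± 0.12 in old and 11.96 ± 0.77 in young VSMCs and Tagln at 9.46 ± 0.16 and 9.35 ± 0.82 in old and young (SD, n = 3 each). The mean of the 8 smooth muscle markers was 7.999, 8.12 and 7.91 in old replicates 1 to 3, against 7.44, 8.51 and 7.22 in young replicates 1 to 3. Young replicate 2 was thus the highest sample in smooth muscle markers and the lowest young sample in Cfb, C4b and Serping1. Of these markers, Cnn1 was higher in old at the study's threshold (1.82 ± 0.77, SE, unadjusted p = 0.0452, adjusted p = 0.43, limma), and 0 were lower. Over all genes 0.325% were higher and 0.676% lower. The Cnn1 groups overlapped, at 8.02, 8.90 and 8.54 in old and 5.88, 8.76 and 5.38 in young VSMCs. The part of the smooth muscle markers in the complement differences was not tested.

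Genes that interferon induces were lower in old VSMCs together with Cfb. Of 12 measured, 10 passed the study's threshold as lower and 0 as higher, with a median difference of -1.81. Over all genes 0.676% passed it as lower and 0.325% as higher. This list and the NF-kB list were chosen with earlier results of these data known, so their counts are only a description. Ifit3 and Mx1 did not pass, with differences of -0.23 each. Bst2 differed by -1.09 ± 0.22 and Ifit1 by -2.15 ± 0.37 (SE), and the other 8, Isg15, Oas2, Oasl2, Mx2, Irf7, Usp18, Rsad2 and Zbp1, by -2.32 to -1.01. The list mean was 6.95, 6.32 and 6.84 in old replicates 1 to 3, against 8.50, 8.29 and 7.90 in young replicates 1 to 3. Young replicate 2 was high in this list, unlike in Cfb and C4b, and young replicate 3 was its lowest young sample. Of 12 NF-kB targets 2 were lower at the threshold, Il6 (-1.68 ± 0.35) and Cxcl1 (-1.02 ± 0.22), and 0 were higher. At an unadjusted p under 0.05 and any size 7 of the 12 were lower and 0 higher, against 4.72% and 6.71% of all genes (limma). The median difference of the NF-kB targets was -0.49. The NF-kB targets with the brightest probe sets, the acute-phase genes Saa3 and Lcn2, differed by -0.06 ± 0.25 and -0.04 ± 0.23. The list mean of the NF-kB targets was 9.72, 9.44 and 9.41 in old replicates 1 to 3, against 10.12, 9.89 and 10.10 in young replicates 1 to 3. The part of these lists in the difference of Cfb was not tested.

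**Figure D3:**
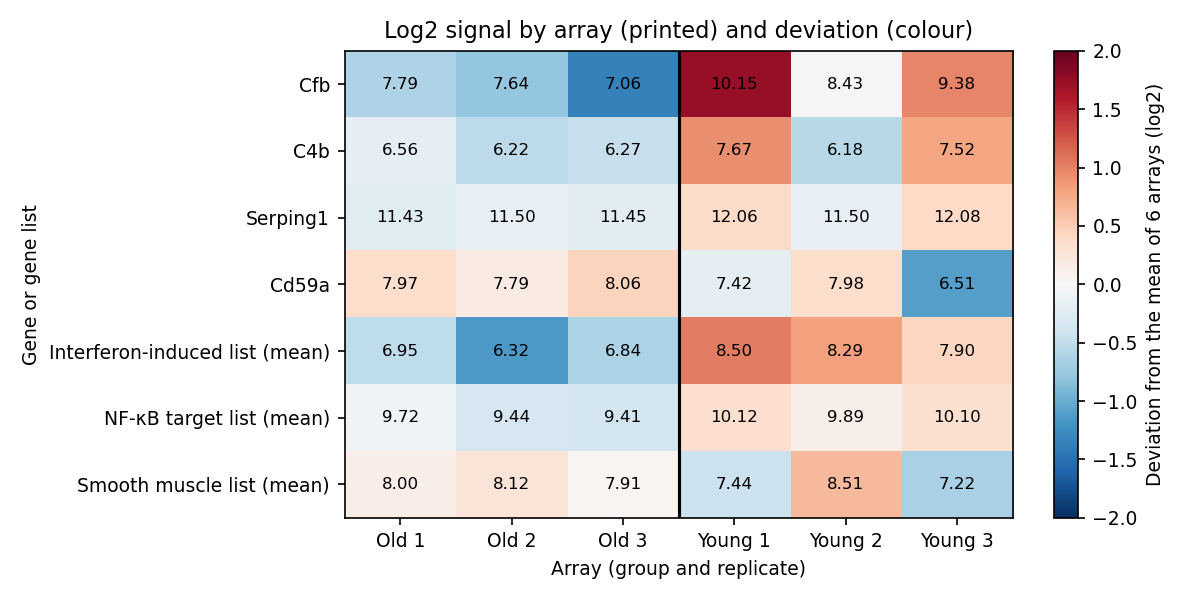
Log2 signal by array (columns, old left of young), printed in each cell for 4 members and as the mean of 3 gene lists; colour gives the deviation from the mean of the 6 arrays. Young replicate 2 is at 8.43 in Cfb and 6.18 in C4b, the lowest young values, while its interferon-induced list is at 8.29 and its smooth muscle list at 8.51.

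Markers of cells that could bring complement transcripts into the cultures were read as lists. Of 12 macrophage and leukocyte markers 0 passed the study's threshold, with list means of 5.29 to 5.35 in old and 5.30 to 5.50 in young VSMCs. Ptprc and Adgre1, which define leukocytes and macrophages, were at 3.54 and 4.40 in old and at 3.25 and 4.44 in young VSMCs on average. The lysosomal gene Cd68, the brightest of the list, was at 7.77, 7.73 and 7.63 in old VSMCs and at 7.94, 8.43 and 10.33 in young VSMCs. All old Cd68 values were thus below all young ones, and it narrowly missed the threshold (-1.19 ± 0.52, SE, unadjusted p = 0.052, limma). Cd14 differed by 0.15. Of 9 adipocyte markers 1 was lower at the threshold, the fatty acid binding protein gene Fabp4 (-1.13 ± 0.20, SE), and 0 were higher. Over all genes 0.676% were lower and 0.325% higher. At an unadjusted p under 0.05 and any size, 2 adipocyte markers were lower, Fabp4 and Retn (limma). Pparg was the 1 higher (0.52 ± 0.14, SE), with all old values above all young ones. Adipoq stood at 4.26 in old and 4.40 in young VSMCs on average, and Lpl differed by 0.26. Adipocyte list means were 5.97 to 6.04 in old and 5.97 to 6.25 in young VSMCs. Of 9 measured fibroblast and adventitial markers, 7 endothelial and 6 hepatocyte markers 0 passed the threshold, with median differences of -0.05, -0.07 and -0.14. At an unadjusted p under 0.05 and any size, 1 fibroblast and adventitial marker was higher and 2 were lower. By the same rule 2 endothelial markers and 1 hepatocyte marker were lower and 0 higher (limma). Over all genes 4.72% were lower and 6.71% higher. Among the brightest of these lists, Dcn differed by 0.17, Pdgfra by -0.93, Kdr by 0.55, Tek by -0.58, Ahsg by -0.24 and Apoa1 by -0.12. All old Pdgfra values were below all young ones (unadjusted p = 0.00123, adjusted p = 0.171, limma). Albumin (Alb) stood at 4.63 in old and 4.51 in young VSMCs on average. The part of other cell types in the complement values was not tested.

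The genes whose pattern over the 6 arrays was most like that of Cfb were Atf7ip, Fabp4 and Dnajb9, among 11084 genes with a mean above the median. Their Pearson correlations with Cfb were 0.996 for Atf7ip, 0.991 for Fabp4 and 0.989 for Dnajb9. The 6 points share the split into old and young, and 167 genes had a correlation above 0.9 with Cfb. Differences were -0.27 for Atf7ip, a chromatin regulator, and -0.49 for Dnajb9, a chaperone of the endoplasmic reticulum.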

How the data were processed

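Expression was measured on 6 arrays, 3 old and 3 young. The deposited values are log2 signals, which the authors made with the RMA algorithm of the oligo package (background correction and quantile normalization); the Transcriptome Analysis Console is named in the submitters' processing notes, and versions are not given in the sources used here. They were used as deposited. Of 41345 probe sets, 23521 carried 1 gene symbol in the platform annotation, 1820 several and 16004 none. The brightest probe set by mean over the 6 arrays stood for each of 22180 genes. RefSeq identifiers changed no symbol. Differences were tested with lmFit and eBayes of limma 3.58.1 (R 4.3.3), two-sided, with Benjamini-Hochberg adjustment over all genes; the study's threshold is a difference over 1 in size with an unadjusted p under 0.05. Arrays have no depth in reads, and their number limits the precision.

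Gene lists came from background knowledge, and of 133 entries 125 were matched. The members and lists were chosen with earlier results of these data known. Genes named are all members; other complement genes at the threshold and the brightest of each role; the brightest 2 of each further list and those at the threshold; and the 3 genes most correlated with each member at the threshold. Others are said to be chosen after their values were seen, or define a cell type or a paralog. The steps were tested on simulated data. Alternatives were quantile normalization, median centring, 2 filters on dim probe sets, other ways of choosing probe sets, array weights, a replicate block, eBayes with trend and robust settings, each sample left out and other thresholds.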

Additional observations from a re-analysis of the deposited data

How the results depend on the processing

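Cfb stayed lower in old VSMCs past the study's threshold under all 15 alternatives of processing and samples, with differences of -2.27 to -1.41 (unadjusted p at most 0.00723 in the fits without 1 sample, limma); its adjusted p ran from 0.0992 to 0.487 over these alternatives. The number of members called was 1 to 2 over the fits without 1 sample, the second being C4b without young replicate 2; it was 2 at any size with an unadjusted p under 0.05 and 0 at an adjusted p under 0.05. Serping1 was at -0.34 (unadjusted p = 0.0548) with arrays centred on their medians, which moved the median of all genes to 0.11. With every probe set fitted, its p was 0.0503.

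Differences near 0 changed sign. Over the fits without 1 sample Cd55 ran from -0.287 to 0.056, above 0 without young replicate 1 or old replicate 3. C3ar1 ran from -0.401 to 0.201, above 0 when young replicate 1 or 2 or old replicate 2 was left out, and was at 0.0372 with centred arrays. C5ar1 ran from -0.0833 to 0.239, below 0 without young replicate 1 or old replicate 1. In the wider complement list the count called was 0 with quantile normalization, both dim filters, every probe set fitted or the replicate block, and ran from 0 to 3 without 1 sample. With array weights it stayed at 1, but the gene was C2, lower, in place of Masp1, higher. It was 4 with a size over 0.5 or any size, and 0 at an adjusted p under 0.05. Over all genes 222 were called, against 755 with every probe set, 1135 with a size over 0.5, 2536 at any size and 10 at an adjusted p under 0.05, and from 164 to 310 without 1 sample.

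The replicate numbers did not pair the samples: same-numbered samples had correlations of deviations of 0.0364, 0.0194 and -0.0147. With the replicate block Cfb was at -1.82 as before and C4b had an unadjusted p of 0.0222 (limma).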

Other observations

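Some members varied more among young than among old samples. The young SD exceeded the old SD in 5 of 7 members, or 71.4%, which is near the 61.0% of all genes. It was over 4 times as large in 4 of 7, C4b, Serping1, Cd59a and C3ar1, against 10.4% of all genes. This was noticed in the values and is given as a description. The young sample farthest from the other young ones was replicate 2 for C4b and Serping1 and replicate 3 for Cd59a and C3ar1.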
